A study of Homo sapiens with 12 samples.

Results

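The genes compared here are all those that the authors' tables list as changed by lipopolysaccharide (LPS) in THP-1 cells, and the comparison is that of S80A with wild-type cells after 3 hr of LPS. One table covers the LPS response of wild-type cells (2335 genes) and the other that of S80A cells (2508 genes). Joined by gene identifier, they gave 3281 genes, of which 1562 were in both tables, and these are 3281 of the 3281 genes in the series' files. THP-1 is a line of human monocytic leukaemia cells. All cells in the study were first driven toward a macrophage state with the phorbol ester PMA (25 ng/ml, 72 hr) and then kept without it for 4 days. The 3 wild-type libraries (WT) and 3 S80A libraries compared here had then received LPS at 10 ng/ml for 3 hr. The 3 wild-type and 3 S80A libraries at 0 hr, with PMA and no LPS, serve as the background to each difference. S80A names an NFKB1 gene whose serine codon 80 encodes alanine. The labels do not say how that line was made, whether it is 1 clone, or whether replicates were separate cultures. The genotype and the line therefore cannot be told apart, and every p-value reflects only how these libraries vary, which may be technical.

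NFKB1 encodes p105, the precursor of p50, a DNA-binding subunit of the transcription factor NF-κB. The mature p50 lacks a transactivation domain. It acts in dimers with RelA or c-Rel, which activate genes, or as homodimers, which can occupy the same κB sites without activating. LPS from the outer membrane of Gram-negative bacteria is sensed by TLR4. The IκB kinases then release NF-κB to the nucleus, where in macrophages it drives genes for cytokines, chemokines, adhesion molecules and the pathway's own inhibitors. A serine changed to alanine can no longer be phosphorylated. The study's title gives its question as the part that phosphorylation of this p50 serine plays in transcription after LPS.

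Expression is given as scaled reads, which the authors made by scaling each library's read counts by its size factor. At 3 hr the listed genes held 3644991 to 4468968 reads in the wild-type and 4661457 to 5789918 in the S80A libraries. These sums cover only the listed genes and are not the libraries' depth. Principal component analysis of the 6 libraries on the log2 scale placed 77.1% of the variance on a first component that separated the genotypes. On it the wild-type libraries lay at -37.2, -41.9 and -39.9 and the S80A libraries at 23.1, 45.8 and 50.1, so S80A replicate 1 stood nearer to the wild type than replicates 2 and 3 did. Counts without it are given beside the main ones. Among 11 macrophage markers, 4 were listed (CD14, FCGR3A, CD163 and MERTK), and of these MERTK was higher in S80A cells. CD34 alone of 8 markers of undifferentiated myeloid cells and CD79B alone of 22 markers of other cell types were listed, and neither passed the test. The rest of these markers were not analysed here, since only LPS-changed genes are in the tables.

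After LPS, S80A cells differed from wild type at nearly as many listed genes as not. Of the 3281 genes, 959 were called higher in S80A cells (29.2%) and 582 lower (17.7%), or 1541 in either direction (47.0%). A gene is called where the adjusted p from limma on log2(scaled reads + 1), with Benjamini-Hochberg adjustment over all 3281 genes, is under 0.05. Differences are given on that log2 scale as S80A minus wild type, where 1 is a doubling, and they understate changes of genes with few reads. Differences over 1 were called for 760 genes higher in S80A (23.2%) and 439 lower (13.4%). Beyond 3, an 8-fold difference, 87 genes were higher and 55 lower. All 3 S80A libraries lay above all 3 wild-type libraries for 1172 genes (35.7%) and below them for 765 (23.3%), and the groups overlapped for 1344. The median difference over all listed genes was 0.19 rather than 0 with the authors' size factors. With that median subtracted the calls were 794 higher and 727 lower, so the excess of higher genes depends on the scaling, and the share of calls that were higher went from 62.2% to 52.2%. The counts also depended on single libraries. Without wild-type replicate 2 there were 712 higher and 383 lower, without wild-type replicate 3 there were 692 and 363, and without S80A replicate 1 there were 1090 and 698. The genes had been listed for their LPS response in the same libraries, so these shares describe LPS-changed genes and not the transcriptome. In bulk RNA, fewer cells with a transcript and less of it per cell cannot be told apart.

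**Figure D1:**
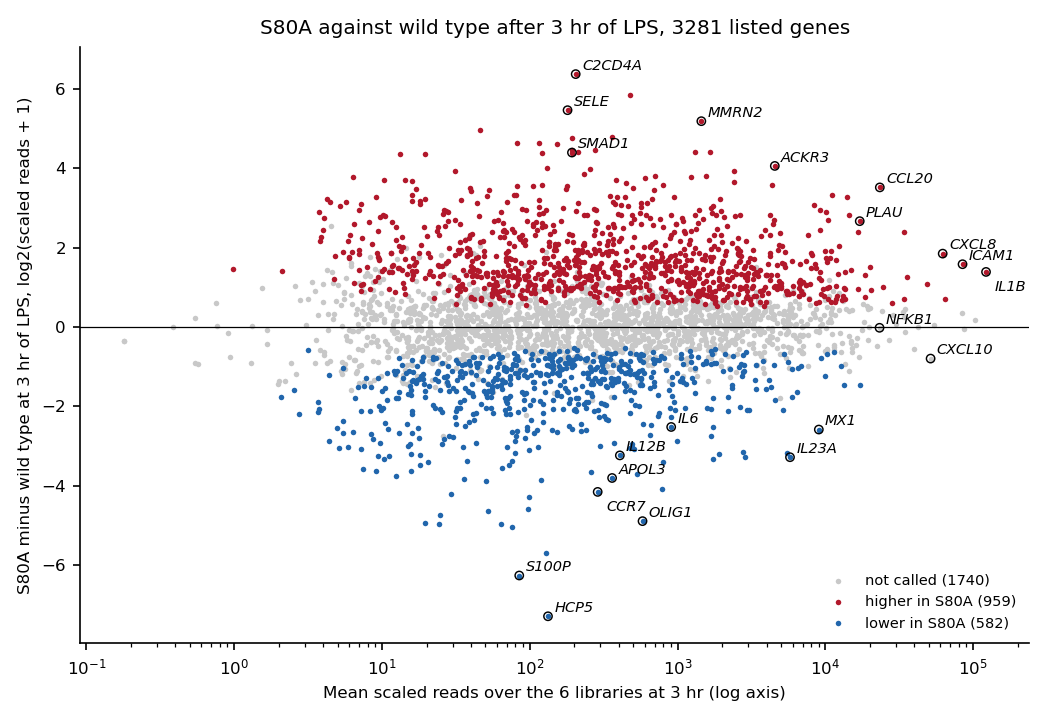
Difference between S80A and wild-type cells at 3 hr of LPS for each of 3281 listed genes (vertical axis, log2(scaled reads + 1)) against the mean scaled reads of the 6 libraries (horizontal log axis). Coloured points passed the test, 959 higher and 582 lower in S80A, and the circled genes are named in the text. Called genes lie at all levels of expression and reach from HCP5 at -7.29 to C2CD4A at 6.37.

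The NFKB1 transcript itself did not pass the test. NFKB1 had 22659.9, 24064 and 23146 scaled reads in wild-type replicates 1, 2 and 3 and 28402, 21622 and 19572 in S80A replicates 1, 2 and 3. The ranges overlapped, with S80A replicate 1 the highest of the 6 (difference -0.02 ± 0.21 SE, adjusted p = 0.936, 95% interval -0.53 to 0.48). A read count per gene holds no base calls, so it does not check the S80A change. The partner subunits REL (-0.11, adjusted p = 0.776) and RELB (-0.12, adjusted p = 0.613) and the inhibitor NFKBIA (0.37, adjusted p = 0.217) were not called either. Their intervals were -0.79 to 0.57 for REL, -0.54 to 0.30 for RELB and -0.17 to 0.92 for NFKBIA. Differences within these bounds cannot be told from none here.

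Of the 24 listed NF-κB subunits, IκB proteins and feedback regulators, 7 were called higher (29.2%), 2 lower (8.33%) and 15 neither. The share higher equals that over all listed genes and the share lower is below theirs (29.2% and 17.7%), and the median difference was 0.29 against 0.19. TNFAIP3, which encodes the deubiquitinating inhibitor A20, had 33269.8, 30890.0 and 28893 scaled reads in the wild-type libraries and 77204, 66916 and 53199 in the S80A libraries. All S80A libraries lay above all wild-type ones (1.07 ± 0.21 SE, adjusted p = 0.00737), although in a fit of all 12 libraries, which also draws on the spread at 0 hr, TNFAIP3 was not called (adjusted p = 0.0536). TRAF1, an adaptor induced by NF-κB, was at 21684, 18830.3 and 22396 and 48779.9, 50633 and 50912, again without overlap and with little spread within either genotype (1.26 ± 0.18 SE, adjusted p = 0.00247). The ubiquitin ligases BIRC2 (1.41) and BIRC3 (1.55), the NOD adaptor kinase RIPK2 (1.33), the kinase of the alternative pathway MAP3K14 (1.25) and the A20-binding protein TNIP2 (0.53) were the others higher. Lower were NFKB2, the p100 subunit gene, at 12782, 14822 and 14257 against 10710.4, 8669 and 7641 (-0.64 ± 0.21 SE, adjusted p = 0.0421), and MAP3K8, the kinase TPL2 that p105 holds inactive, at 6282, 5771 and 5544 against 4482, 2460.4 and 2525 (-0.95 ± 0.28 SE, adjusted p = 0.0298). In both the groups did not overlap, but the calls depended on single libraries. NFKB2 was not called in 5 of the 6 fits that each left out 1 library (adjusted p 0.0644 to 0.131), nor was MAP3K8 (adjusted p 0.0777 to 0.0983). Both kept their calls without S80A replicate 1. TNIP2 and MAP3K14 lost their calls in 5 and 3 such fits.

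Cytokine genes divided between the genotypes, as did the listed genes as a whole (29.2% higher and 17.7% lower). Of 31 listed inflammatory cytokines and growth factors, 12 were higher in S80A cells (38.7%), 7 lower (22.6%) and 12 not called, with a median of 0.09. The lower ones included genes of the interleukin-12 family and IL6, and the higher ones interleukin-1 family genes and several growth factors. IL6, the acute-phase cytokine, had 1525, 1733 and 1356 scaled reads in the wild-type libraries and 333, 285 and 197 in the S80A libraries. The highest S80A library was far below the lowest wild-type one, and the mean was 5.66 times higher in wild type (-2.52 ± 0.26 SE, adjusted p = 0.00107). IL23A, the p19 subunit of interleukin-23, was lower likewise, at 12442, 10513 and 7597 in wild type and 2747, 751 and 518 in S80A, with S80A replicate 1 the highest of its group (-3.29 ± 0.61 SE, adjusted p = 0.00540).

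IL12B encodes the p40 subunit that interleukin-12 and interleukin-23 share. It was at 906, 617 and 537 in wild-type and 314, 28.8 and 37.2 in S80A libraries. The genotypes did not overlap, but S80A replicate 1 was nearer to the wild-type libraries than to the other 2 S80A libraries on the log2 scale (-3.24 ± 0.86 SE, adjusted p = 0.0210). The call was lost in 5 of the 6 fits that left out 1 library (adjusted p 0.0528 to 0.0670) and held without S80A replicate 1. IL27, whose product pairs with EBI3, had 150.3, 271 and 248 scaled reads in wild type and 17.9, 24.2 and 5.99 in S80A (-3.86 ± 0.50 SE, adjusted p = 0.00190), whereas EBI3 was not called (0.75). Lymphotoxin alpha (LTA) was lower at 103, 129.8 and 151 against 50.5, 52.9 and 59.9 (-1.21 ± 0.22 SE, adjusted p = 0.00504), while its membrane partner LTB was higher by 2.81, with 71.6, 154 and 129.5 in wild type and 209.7, 1398 and 1724 in S80A. LTA was not called in the fit of all 12 libraries (adjusted p = 0.0801), and the LTB call was lost in 5 of 6 leave-1-out fits (adjusted p up to 0.0836). TNFSF10 (TRAIL, -2.05) and TNFSF13B (BAFF, -1.99) were also lower, with calls lost in 4 and 3 such fits.

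On the other side, IL1B had 105883, 52257 and 51941 scaled reads in the wild-type libraries and 212176, 157342 and 153267 in the S80A libraries. The lowest S80A library stood above the highest wild-type one, and replicate 1 was the highest in each genotype (1.38 ± 0.33 SE, adjusted p = 0.0148). IL1B was not called without wild-type replicate 2 (adjusted p = 0.0563) or replicate 3 (adjusted p = 0.0583), nor in the fit of all 12 libraries (adjusted p = 0.290). IL1A, at 1227, 325 and 342 and 2625, 1578 and 1568, also had replicate 1 highest in each genotype (1.86 ± 0.54 SE, adjusted p = 0.0295), and its call was lost in 5 of the 6 such fits (adjusted p up to 0.0984). IL18, an interleukin-1 family cytokine activated by caspase-1, was tighter, at 344, 310.4 and 278 against 625, 654 and 613 (1.02 ± 0.19 SE, adjusted p = 0.00520). IL36G, a family member best known from epithelium, was higher by 3.55. CSF2, the gene of GM-CSF, went from 37.6, 6.23 and 4.28 in wild type to 122, 430.2 and 552 in S80A (4.76 ± 0.87 SE, adjusted p = 0.00523), without overlap but with S80A replicate 1 well below replicates 2 and 3. The platelet-derived growth factors PDGFB (3.80 ± 0.39 SE, adjusted p = 0.00116) and PDGFA (2.38 ± 0.38 SE, adjusted p = 0.00348), the interleukin-6 family cytokine LIF (3.19), INHBA (1.78), IL32 (0.90) and TNFSF15 (0.82) completed the higher group. The calls of LIF and TNFSF15 were lost in 5 and 2 leave-1-out fits.

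Several of the best-known LPS targets did not pass the test. TNF had 14083, 16430.2 and 15691 scaled reads in the wild-type libraries and 11073, 12412 and 16356 in the S80A libraries, with ranges that overlapped (-0.23 ± 0.22 SE, adjusted p = 0.421, 95% interval -0.75 to 0.29). IFNB1, the type I interferon gene, was at 136, 331 and 310.5 and 172, 210.5 and 243, where wild-type replicate 1 was the lowest of all (-0.22 ± 0.38 SE, adjusted p = 0.652, 95% interval -1.12 to 0.67). PTGS2, the cyclooxygenase of inflammation, varied more within the genotypes than between them, with 7595, 3722 and 3546 against 13368, 3909.6 and 3321 (0.26 ± 0.58 SE, adjusted p = 0.736). Replicate 1 was the highest library in both genotypes. IL10, which limits inflammatory gene expression, was called higher. It had 191, 96.5 and 132 scaled reads in wild type and 426, 633 and 474 in S80A, so the mean was 3.65 times higher without overlap (1.90 ± 0.31 SE, adjusted p = 0.00346).

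Chemokine genes were called in both directions. Of 22 listed ligands, 6 were higher in S80A cells (27.3%), 5 lower (22.7%) and 11 not called, with a median of 0.03, and both shares are near those over all listed genes (29.2% and 17.7%). All 5 listed CXC ligands that draw neutrophils through CXCR1 and CXCR2 (CXCL1, CXCL2, CXCL3, CXCL6 and CXCL8) were in the higher group, together with CCL20, the ligand of CCR6. That grouping by receptor was made after the values were seen. CCL20 had 5685, 3168 and 2781 scaled reads in wild-type and 33148, 44591 and 50683 in S80A libraries, 11.0 times more on average, with every S80A library far above every wild-type one (3.52 ± 0.33 SE, adjusted p = 0.000909). CXCL8, which encodes interleukin-8 and is listed under its older symbol IL8, was at 38914, 20793 and 23472 and 95630.1, 82646 and 111588 (1.85 ± 0.29 SE, adjusted p = 0.00315). CXCL2 was at 2125, 1810.5 and 1709.7 and 5565, 4217 and 5064 (1.39 ± 0.21 SE, adjusted p = 0.00264), and CXCL3 and CXCL1 differed by 1.78 and 1.48. None of these 4 genes overlapped between genotypes. In the fit of all 12 libraries CXCL2 was still called, and CXCL8, CXCL3 and CXCL1 were not (adjusted p = 0.109, 0.0536 and 0.0967). The call of CXCL6, with 41.1, 23.9 and 38.5 and 57.2, 102 and 101, was lost in 3 of 6 leave-1-out fits (adjusted p up to 0.0606).

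The lower chemokines were CCL8, CCL7, CCL19, CXCL13 and CXCL14. CCL8 (MCP-2), a monocyte attractant, had 5049, 8049 and 7566 scaled reads in wild type and 2606, 3368 and 772 in S80A (-1.83 ± 0.55 SE, adjusted p = 0.0326). The groups did not overlap, but the call was lost without any 1 of the wild-type libraries (adjusted p 0.0543 to 0.0981). CCL19, a ligand of CCR7, went from 52.9, 73.7 and 74.9 to 16.8, 2.30 and 3.60 (-3.38 ± 0.61 SE, adjusted p = 0.00499). CCL7, CXCL13 and CXCL14 had under 40 scaled reads in every library at 3 hr, and their calls were lost in 3, 2 and 5 leave-1-out fits. Abundant monocyte and T cell attractants were not called. CCL2 was at 4335, 4643 and 4363 and 2257, 6069 and 3235, with S80A replicates on both sides of wild type (-0.33 ± 0.36 SE, adjusted p = 0.486). CCL5 was at 19851, 19313 and 22679 and 20873, 10566 and 8138 (-0.76 ± 0.36 SE, adjusted p = 0.123), and without S80A replicate 1 it was called lower (adjusted p = 0.00524). It was also called lower by edgeR with trimmed-mean (TMM) factors and by DESeq2. CXCL10 was at 43489.8, 72331 and 70283 and 41889.7, 65753 and 15218, with S80A replicate 2 within the wild-type range and replicates 1 and 3 below it (-0.80 ± 0.54 SE, adjusted p = 0.260). CCL3 (0.45, adjusted p = 0.107) was called higher without S80A replicate 1 (adjusted p = 0.0263). CCL4 (0.24, adjusted p = 0.346) has near-identical copies among which reads could be divided, and its value is uncertain.

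**Figure D2:**
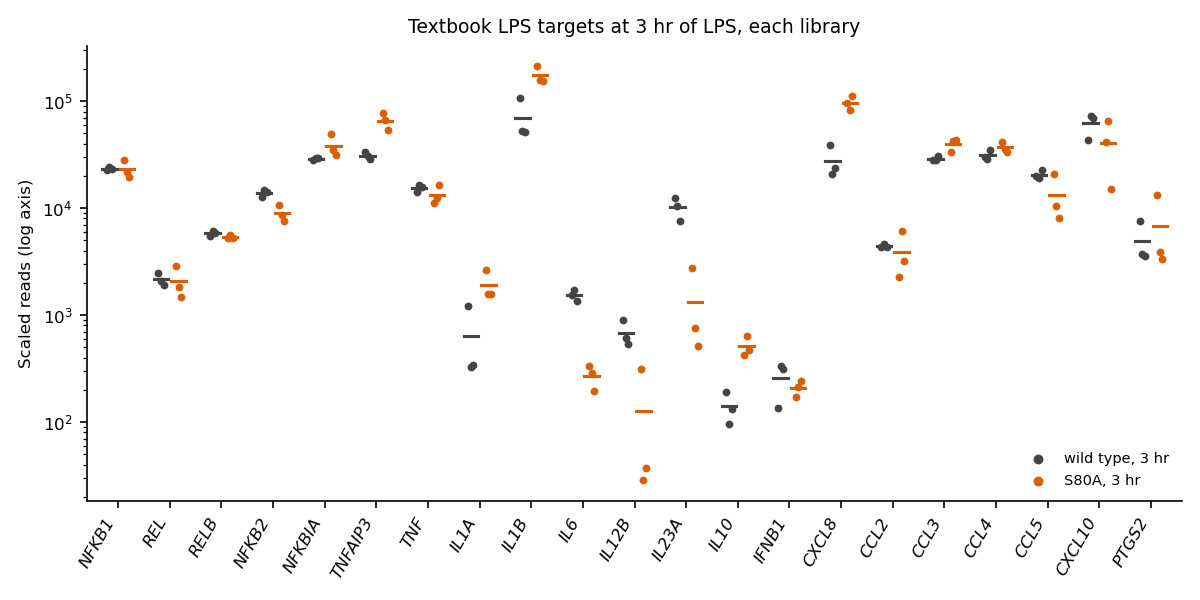
Scaled reads (log axis) of 21 NF-κB pathway and LPS target genes in each of the 3 wild-type and 3 S80A libraries at 3 hr of LPS, with group means as bars. IL6, IL12B and IL23A lie lower in S80A, CXCL8, IL1B, IL10 and TNFAIP3 lie higher, and TNF, NFKB1, REL and RELB overlap.

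Some genes of either direction held matches to the κB consensus in their promoters. The κB consensus is the 10-base motif to which NF-κB dimers bind. It was searched on both strands, counting overlapping matches, in RefSeq promoters of build GRCh38.p14 that run from 250 bases before to 50 after a gene's start. It occurred in 10.8% of all 27305 promoters of the reference. Of the 3281 listed genes, 2423 had a promoter there, under 80%, so a comparison of its share between called and uncalled genes is void and is not made. A match was present in 15.1% of these 2423 promoters and in 23 of the 100 named genes with a promoter. The stretches below show the 150 bases before the start of 3 genes higher in S80A cells, 2 lower and 1 not called, 5′ to 3′ on the gene's strand, with matches in capitals. These genes were picked by hand as examples that hold a match, so they do not show how common matches are. Their places are chr1:169734080-169734229 (minus strand), chr4:74099196-74099345 (minus), chr6:137867109-137867258 (plus), chr7:22727050-22727199 (plus), chr12:56338734-56338883 (plus) and chr14:35404750-35404899 (minus).
SELE: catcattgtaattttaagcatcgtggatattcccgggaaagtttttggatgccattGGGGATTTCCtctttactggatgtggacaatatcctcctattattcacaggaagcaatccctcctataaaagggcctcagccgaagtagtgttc
CXCL2: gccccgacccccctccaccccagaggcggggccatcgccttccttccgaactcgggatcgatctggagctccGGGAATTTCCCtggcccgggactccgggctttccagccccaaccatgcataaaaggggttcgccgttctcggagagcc
TNFAIP3: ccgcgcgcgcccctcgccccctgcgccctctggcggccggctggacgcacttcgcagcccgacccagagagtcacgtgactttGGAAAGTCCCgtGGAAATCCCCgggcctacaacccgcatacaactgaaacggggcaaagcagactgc
IL6: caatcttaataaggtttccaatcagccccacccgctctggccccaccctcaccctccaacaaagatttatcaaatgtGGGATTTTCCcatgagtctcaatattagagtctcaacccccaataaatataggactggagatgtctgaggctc
IL23A: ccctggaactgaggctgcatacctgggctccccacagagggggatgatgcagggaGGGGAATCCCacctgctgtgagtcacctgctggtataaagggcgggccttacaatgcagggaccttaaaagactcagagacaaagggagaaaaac
NFKBIA: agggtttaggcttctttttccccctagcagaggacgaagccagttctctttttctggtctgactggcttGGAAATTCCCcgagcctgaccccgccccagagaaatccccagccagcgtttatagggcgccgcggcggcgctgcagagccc

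Read in the direction of the motif, SELE (higher) holds GGGGATTTCC, and the same 10 letters stand on the opposite strand of TNFAIP3 (higher) beside GGGACTTTCC. CXCL2 (higher) holds GGGAATTTCC, as do CXCL1 and CXCL3, and those letters also occur in NFKB1 and, on the opposite strand, in NFKBIA, neither of which was called. IL6 (lower) holds GGGATTTTCC and IL23A (lower) GGGGAATCCC. GGGAAATTCC occurs in IFNB1, REL and CXCL10 (not called) and on the opposite strand of MAP3K8 (lower) and of CXCL1, CXCL2 and CXCL3 (higher). GGGAATTTCC and GGGAAATTCC thus occurred in genes of different calls. Among the named genes, the other 10-letter matches given here stood only in genes of a single call. GGGGATTTCC was also on the opposite strand of BIRC3 (higher). A match is not evidence of binding. CSF2, IL1A, IL1B, IL12B and CXCL8 had no match in this window, which says nothing about κB sites with other letters or elsewhere.

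The largest differences were mostly in genes other than the classical cytokines. The 12 largest in each direction were taken among called genes with at least 100 scaled reads on average in the higher genotype and no overlap between the genotypes, so their size and separation are a description. SELE encodes E-selectin, an adhesion receptor best known from activated endothelium. It had 14.1, 5.19 and 4.28 scaled reads in the wild-type libraries and 277, 359 and 421 in the S80A libraries, 44.8 times more on average and well apart in all 6 (5.46 ± 0.42 SE, adjusted p = 0.000756). C2CD4A and C2CD4B are neighbouring genes on chromosome 15 named for a calcium-dependent C2 domain. C2CD4A went from 1.17, 3.11 and 3.21 in wild type to 65.0, 473 and 681 in S80A (6.37 ± 0.85 SE, adjusted p = 0.00201) and C2CD4B by 5.83. In both, S80A replicate 1 was several-fold below replicates 2 and 3 and still above all wild-type libraries. MMRN2, an endothelial matrix glycoprotein of the multimerin family, was at 69.3, 69.6 and 73.9 against 1463, 3187 and 3821 (5.18 ± 0.37 SE, adjusted p = 0.000649).

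EFNA1, a membrane ligand of Eph receptors that TNF induces in endothelium, went from 63.4, 10.4 and 16.1 in wild type to 1065, 545 and 444 in S80A (4.78 ± 0.67 SE, adjusted p = 0.00226). The growth factor FGF18 (4.64), the soluble guanylate cyclase subunit GUCY1A3 (4.62), the actin-binding protein AFAP1L1 (4.47), the sphingosine-1-phosphate receptor S1PR1 (4.46), the mTOR inhibitor DDIT4L (4.42) and the non-coding LOC101927086 (4.63) followed. CSF2, described above, completes these 12. S80A replicate 1 was the lowest S80A library for 11 of the 12, all but EFNA1.

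At the other end, HCP5, a non-coding RNA gene of the HLA region, was nearly absent from S80A cells. It had 299.5, 275 and 219 scaled reads in wild-type and 0, 1.15 and 1.20 in S80A libraries, from 725 reads against 2 over the groups. The ratio of scaled reads was 342 with an exact 95% interval for counting error of 94.4 to 2832. S100P, a calcium-binding protein of the S100 family, went from 216, 167 and 121 to 1.12, 0 and 3.60 (-6.27 ± 0.55 SE, adjusted p = 0.000889). APOBEC3A, a cytidine deaminase induced by interferon in monocytes, was at 253, 222 and 249 in wild type and 47.1, 1.15 and 0 in S80A, so S80A replicate 1 kept a part of the signal that replicates 2 and 3 lacked (-5.69 ± 1.32 SE, adjusted p = 0.0128). The same was seen for the retinaldehyde dehydrogenase ALDH1A1, with 31.4, 1.15 and 0 in S80A libraries (-5.04), for ANXA8 with 44.9, 6.90 and 1.20 (-4.29) and for CCM2L with 35.9, 2.30 and 2.40 (-4.59).

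OLIG1, a transcription factor known from the oligodendrocyte lineage, was at 902, 1027 and 1428 in wild type and 61.7, 31.1 and 24.0 in S80A (-4.90 ± 0.38 SE, adjusted p = 0.000756). CCR7, the receptor that guides cells to lymph nodes, was at 713, 417 and 507 and 39.2, 29.9 and 20.4, a mean 18.3 times higher in wild type with tight groups (-4.16 ± 0.32 SE, adjusted p = 0.000756). The apolipoprotein L gene APOL3, an interferon-induced gene, was at 564, 721 and 730.1 and 67.3, 48.3 and 31.2 (-3.81 ± 0.31 SE, adjusted p = 0.000785). FAM65B, present symbol RIPOR2 (-4.96), and the non-coding LINC00926 (-4.08) complete the 12 largest lower differences together with IL27. S80A replicate 1 was the highest S80A library for 9 of these 12, all but HCP5, S100P and IL27.

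**Figure D3:**
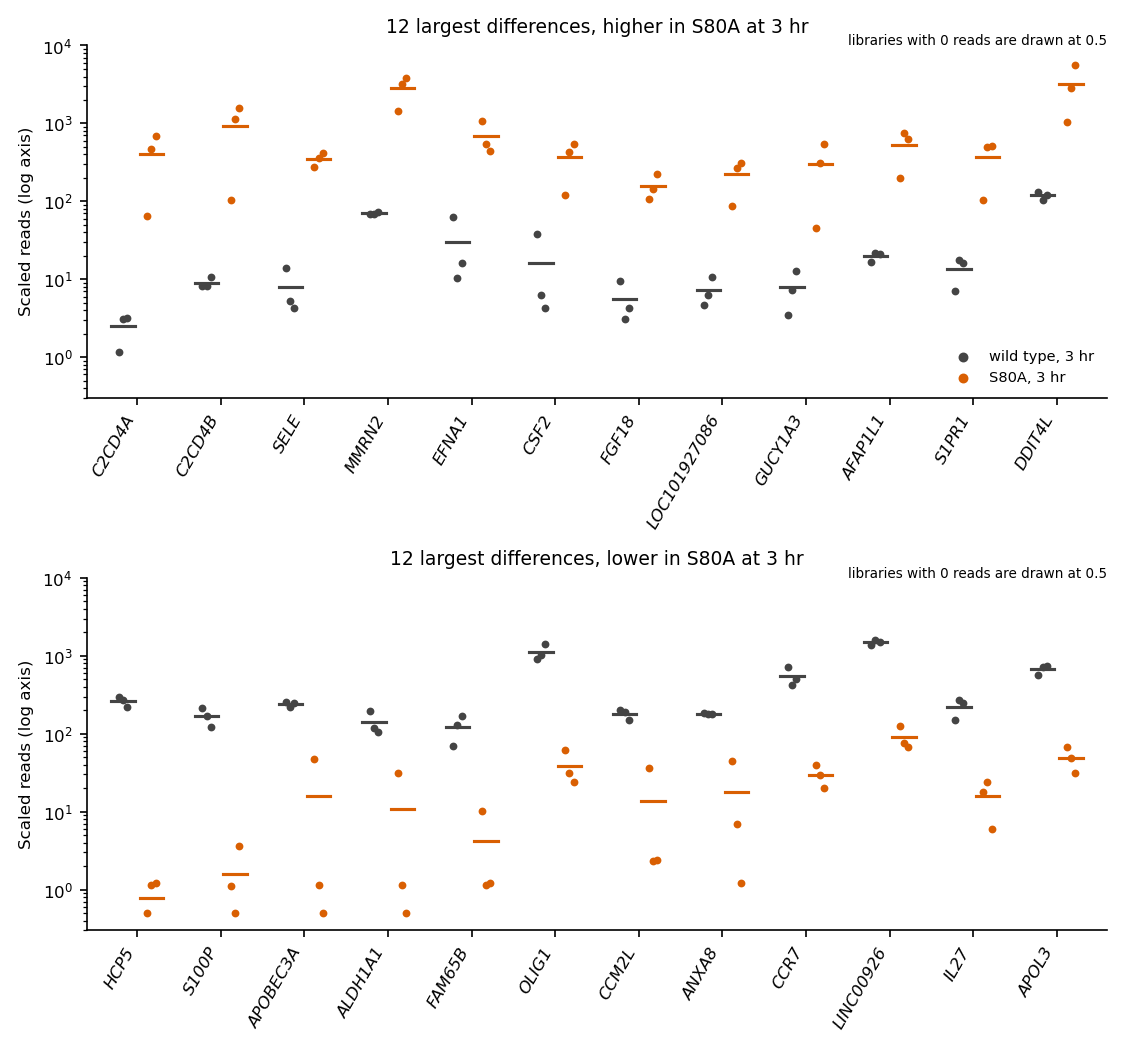
Scaled reads (log axis) in each wild-type and S80A library at 3 hr of LPS for the 12 largest called differences in each direction among genes with at least 100 scaled reads in the higher genotype and no overlap, with group means as bars. Libraries with 0 reads are drawn at 0.5. The groups are apart in all 24 genes, and S80A replicate 1, the left point of each S80A trio, is the one nearest to wild type in 11 of the 12 upper and 9 of the 12 lower genes.

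Adhesion and extracellular matrix genes had the largest share called higher among the lists with at least 8 listed members. Of 21 listed members, 16 were higher in S80A cells (76.2%), 1 was lower (4.76%) and 4 were not called, and the median difference was 1.58. Over all listed genes 29.2% were higher and 17.7% lower. ICAM1, the integrin ligand on inflamed cells, had 39273, 44447 and 43530.3 scaled reads in wild-type and 112801, 138662 and 129494 in S80A libraries (1.58 ± 0.19 SE, adjusted p = 0.00164). Its neighbours on chromosome 19, ICAM4 (1.97) and ICAM5 (2.61), were higher too. The vitronectin receptor chains ITGAV, at 1623, 1025 and 1044 against 6604, 6406 and 6598 (2.44 ± 0.24 SE, adjusted p = 0.000988), and ITGB3, at 23.5, 31.1 and 28.9 against 270.2, 638 and 539.5 (3.99 ± 0.35 SE, adjusted p = 0.000889), both stood apart in every library. ITGB8, another partner of the αv chain, differed by 2.87, and ITGA6 and ITGA4 by 1.92 and 0.90.

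Of matrix genes, the collagenase MMP1 was at 170.3, 162 and 177 in wild type and 839.8, 3393 and 4641 in S80A (3.79 ± 0.61 SE, adjusted p = 0.00334), with S80A replicate 1 well below its group. The stromelysin MMP10 (4.38), the macrophage elastase MMP12 (0.92), tenascin C (TNC, 2.59), the laminin chain LAMB3 (1.17), the hyaluronan receptor CD44 (0.70) and the TNF-releasing protease ADAM17 (0.99) were also higher. SELPLG, the P-selectin ligand of leukocytes, was the member called lower, at 341, 445 and 389.7 against 124, 98.9 and 92.3 (-1.89 ± 0.22 SE, adjusted p = 0.00148). VCAM1, with 448, 846 and 603 and 63.9, 322 and 509.6, THBS1, NINJ1 and MMP19 were not called. Of the 17 calls, 14 were kept in all 6 leave-1-out fits, and CD44, ITGA4 and MMP10 lost theirs in 3, 2 and 3 fits (adjusted p up to 0.0840).

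Of 12 listed urokinase, serpin and coagulation genes, 4 were higher in S80A cells (PLAU, PLAUR, PLAT and SERPINE2, 33.3% against 29.2% of all listed genes), 1 was lower and 7 were not called, with a median of 0.64. PLAU, the urokinase protease, had 6279, 3976 and 3649.7 scaled reads in wild type and 40823, 24471 and 23231 in S80A (2.66 ± 0.32 SE, adjusted p = 0.00166), and its receptor PLAUR had 5398, 3927 and 4577 and 12583, 16795 and 16975 (1.74 ± 0.23 SE, adjusted p = 0.00190). SERPINE2, an inhibitor of thrombin and urokinase, was at 2734, 3843 and 3413 and 12042, 30707 and 33411 (2.81 ± 0.42 SE, adjusted p = 0.00258). In all 3 the genotypes were apart. The call of PLAT was lost in 4 leave-1-out fits (adjusted p up to 0.0765). THBD, the thrombin receptor thrombomodulin, was lower at 4011, 2643 and 3367 against 1695, 733 and 713 (-1.78 ± 0.38 SE, adjusted p = 0.00954).

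Lipid mediator and cholesterol genes were also mostly higher where called. Of 13 listed prostanoid and lipid mediator genes, 7 were higher (53.8%), 2 lower (15.4%) and 4 not called, with a median of 0.98. Over all listed genes the shares were 29.2% and 17.7%. LPAR6, a lysophosphatidic acid receptor, had 182, 118 and 187 scaled reads in wild type and 987, 956 and 969 in S80A (2.60 ± 0.24 SE, adjusted p = 0.000909), and the sphingosine kinase SPHK1 had 1155, 1078 and 1393 and 2449, 3549.6 and 3469.7 (1.37 ± 0.23 SE, adjusted p = 0.00411). The receptor of platelet-activating factor, PTAFR, was lower at 807, 882 and 927 against 186, 86.3 and 73.1 (-3.03 ± 0.36 SE, adjusted p = 0.00164), as was the prostacyclin receptor PTGIR (-1.66 ± 0.39 SE, adjusted p = 0.0132). PTGIR lost its call without wild-type replicate 2 or 3 (adjusted p = 0.0510 and 0.0527), and PLA2G4C, PTGER3 and TBXA2R in 2, 3 and 5 fits. Of 12 listed cholesterol and lipid handling genes, 7 were higher (58.3%), 0 lower and 5 not called, with a median of 1.00. The exporter ABCG1 was at 63.4, 42.6 and 62.1 and 232, 835 and 851 (3.29 ± 0.52 SE, adjusted p = 0.00330), and the squalene epoxidase SQLE of cholesterol synthesis at 2826, 2044 and 2081 and 10524, 20669 and 22692 (2.89 ± 0.34 SE, adjusted p = 0.00154). ABCA1 (1.33), the scavenger receptor OLR1 (2.24) and the nuclear receptors PPARG (2.03) and PPARD (1.72) were higher as well. The seventh, ACSL3, lost its call in 5 of 6 leave-1-out fits (adjusted p up to 0.109). HMGCS1, INSIG1 and LSS of the synthesis pathway were not called.

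Receptor genes gave 11 higher (35.5%), 3 lower (9.68%) and 17 not called of 31 listed, with a median of 0.47. Over all listed genes the shares were 29.2% and 17.7%. ACKR3, an atypical receptor that takes up CXCL12, had 864, 393 and 391 scaled reads in wild type and 7848, 8084 and 9696 in S80A, 15.5 times more on average (4.06 ± 0.35 SE, adjusted p = 0.000807). IL18R1, the binding chain of the interleukin-18 receptor, was at 443, 498 and 575 and 2118, 4083 and 4671 (2.77 ± 0.33 SE, adjusted p = 0.00164), and ACVR2A, an activin receptor, at 739, 589 and 753 and 2947, 2450.0 and 3105 (2.03 ± 0.21 SE, adjusted p = 0.00115). The interferon receptor chains IFNGR1 (1.00), IFNGR2 (1.38) and IFNAR2 (1.04) were higher. Lower beside CCR7 were TGFBR3 at 720.0, 963 and 752 against 129, 198 and 333 (-1.97 ± 0.36 SE, adjusted p = 0.00526) and CCR1, a receptor of CCL3 and CCL5, at 1175, 2495 and 2279 against 663, 837 and 370.5 (-1.67 ± 0.41 SE, adjusted p = 0.0160). CCR1 lost its call without wild-type replicate 2 or 3 (adjusted p = 0.0591 and 0.0606), and CD40 and IL3RA lost theirs in 4 and 2 fits.

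Interferon-stimulated genes had a median difference below 0, and few passed the test. Of 54 listed interferons and interferon-stimulated genes, 2 were called higher (3.7%), 5 lower (9.26%) and 47 neither, against 29.2% and 17.7% of all listed genes. Their median difference was -0.45, against 0.19 over all listed genes. MX1, an antiviral GTPase, had 11565, 18663 and 15893 scaled reads in wild type and 2827, 3700.3 and 1507 in S80A (-2.59 ± 0.37 SE, adjusted p = 0.00247). GBP5, a guanylate-binding protein, was at 3198, 6918 and 5465 and 598, 687 and 323 (-3.28 ± 0.40 SE, adjusted p = 0.00167). ISG15 (-0.98), IRF7 (-0.97) and APOL3 were the others lower. ISG15 and IRF7 each lost the call in 4 of 6 leave-1-out fits (adjusted p up to 0.135 and 0.116). GBP2 went the other way, at 3714, 5438 and 5147 and 10686, 11124 and 8031 (1.07 ± 0.24 SE, adjusted p = 0.0122), and so did the type III interferon IFNL1 (0.94), which had at most 20.7 scaled reads and lost its call in 3 fits. How many interferon genes were called lower depended on the scaling and the test. It was 26 of 54 in edgeR with trimmed-mean (TMM) factors, 28 in DESeq2 and 11 with the median difference subtracted, against 5 here, and 3 without wild-type replicate 2, wild-type replicate 3 or S80A replicate 3. Over all 3281 listed genes the first 3 of these settings called 768, 788 and 727 lower, against 582 here. Leaving out those libraries gave 383, 363 and 463. The receptors IFNGR1, IFNGR2 and IFNAR2 of the same pathway were among the genes higher.

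Pattern recognition genes were called in both directions, as were the listed genes as a whole (29.2% higher and 17.7% lower, median 0.19). Of 25 listed pattern recognition genes, 9 were higher (36%), 4 lower (16%) and 12 not called, with a median of 0.15. The lipopeptide receptors TLR1, at 139, 174 and 193 in wild type and 1075, 1266 and 1036 in S80A (2.74 ± 0.21 SE, adjusted p = 0.000756), and TLR2, at 4189.7, 3935 and 4661 and 12848, 13144 and 12209 (1.58 ± 0.18 SE, adjusted p = 0.00149), were higher, as was their partner TLR6 (2.44). NLRP3, the inflammasome sensor, was at 3611, 3525 and 3176 and 12774, 11974 and 12992 (1.87 ± 0.18 SE, adjusted p = 0.000950), whereas PYCARD, the inflammasome adaptor ASC, was lower at 751, 924 and 828 against 343, 311 and 263 (-1.45 ± 0.20 SE, adjusted p = 0.00226). All of these were apart in all libraries. CLEC5A (-2.17), CLEC4E (-1.66) and NOD2 (-1.18) were lower. NOD2 was not called without wild-type replicate 2 or 3 (adjusted p = 0.0532 and 0.0575). CLEC4E lost its call in 5 of the 6 leave-1-out fits, all but that without S80A replicate 1, and CD180 in 4. CD14, the co-receptor of LPS, was not called (0.74, adjusted p = 0.0721), but without S80A replicate 1 it was called higher (adjusted p = 0.0174). Without that library 9 of the 25 genes were called lower instead of 4, and over all listed genes 698 were called lower instead of 582. Of 13 antigen presentation and costimulation genes, 4 were higher (CD40, ICOSLG, CD58 and CD1D, 30.8%), CD70 was lower (7.69%) and 8 were not called. Only the call of CD58 was kept in all 6 leave-1-out fits.

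Among transcription factors, 12 of 37 listed immediate early and stress-induced genes were higher (32.4%), 3 lower (8.11%) and 22 not called, with a median of 0.33. Over all listed genes 29.2% were higher and 17.7% lower. KLF6 was at 1940.4, 2679 and 2847 in wild type and 8293, 16103 and 13745 in S80A (2.32 ± 0.31 SE, adjusted p = 0.00201), MAFF at 1009, 1113 and 1117 and 2761, 4515 and 4772 (1.85 ± 0.26 SE, adjusted p = 0.00226), and BHLHE40 at 1589, 1171 and 1112 and 3902, 3892 and 3997 (1.62 ± 0.21 SE, adjusted p = 0.00190). Calls of 9 of the 15 members, among them ATF3, FOSL1 and IER2, were lost in 1 or more leave-1-out fits (adjusted p up to 0.151). HIF1A, the hypoxia factor, was higher at 5328, 4705 and 4737 against 15017, 17659.6 and 13606 (1.64 ± 0.20 SE, adjusted p = 0.00164). Of 27 lineage and developmental factors 6 were higher (22.2%) and 6 lower (22.2%). WT1 (2.25 ± 0.33 SE, adjusted p = 0.00257), BCL6 (1.30 ± 0.18 SE, adjusted p = 0.00231) and RUNX1 (1.07) were higher, and CEBPA (-1.10 ± 0.20 SE, adjusted p = 0.00476), GFI1 (-1.63 ± 0.28 SE, adjusted p = 0.00444) and LYL1 (-1.64 ± 0.23 SE, adjusted p = 0.00226), which are known from early blood cells, were lower. The calls of ZEB2 and PAX5 were lost in 5 and 3 fits.

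Of 22 listed genes that limit signalling, 7 were higher (31.8%), 3 lower (13.6%) and 12 not called, with a median of 0.34, which are shares near those over all listed genes (29.2% and 17.7%). TRIB1, a pseudokinase, was at 648, 544 and 567 in wild type and 2959, 10581 and 10663 in S80A (3.57 ± 0.50 SE, adjusted p = 0.00231). The RNase-family member ZC3H12C was at 4547, 4651 and 4566 and 19771, 15079.6 and 17083 (1.91 ± 0.19 SE, adjusted p = 0.00107) and the ERK phosphatase DUSP6 at 3639, 4386 and 4429 and 11379.8, 19549 and 16672 (1.90 ± 0.26 SE, adjusted p = 0.00205). Lower were the cytokine-signalling inhibitors CISH (-1.71 ± 0.34 SE, adjusted p = 0.00739) and SOCS1 (-0.93 ± 0.26 SE, adjusted p = 0.0243) and the interleukin-1 receptor antagonist IL1RN, at 16974, 20547 and 18772 against 11554, 8874 and 2976 (-1.47 ± 0.49 SE, adjusted p = 0.0461). SOCS1 lost its call in 3 leave-1-out fits (adjusted p up to 0.0944), IL1RN in 4 (up to 0.123) and the higher DUSP1 and SPRY2 in 3 and 5.

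Wnt and TGF-β family genes were 12 higher (46.2%), 5 lower (19.2%) and 9 not called of 26, with a median of 0.58. Over all listed genes the shares were 29.2% and 17.7%. SMAD1, which carries BMP signals, had 17.6, 13.5 and 18.2 scaled reads in wild type and 287, 362 and 458 in S80A (4.39 ± 0.25 SE, adjusted p = 0.000486), and the Wnt receptor FZD7 had 482, 576 and 479.6 and 1307, 2521 and 2513 (1.98 ± 0.30 SE, adjusted p = 0.00288). LGR4, the R-spondin receptor, was lower at 1654, 1738 and 1759 against 415, 158 and 193 (-2.88 ± 0.37 SE, adjusted p = 0.00185). The calls of FZD1, WNT1, FZD2, ID3 and WNT3 were lost in 6, 4, 2, 1 and 1 leave-1-out fits. Of 26 metabolic and redox genes, 5 were higher (19.2%), 6 lower (23.1%) and 15 not called. The metallothioneins MT1E, at 888, 987 and 1066 against 170.4, 52.9 and 44.4 (-3.71 ± 0.50 SE, adjusted p = 0.00201), MT1X (-1.96) and MT2A (-1.25) were lower. These genes are near-identical copies, among which the counting could divide reads. IRG1, present symbol ACOD1, which makes itaconate, was lower (-1.24), at 11584, 14224 and 15363 against 8996, 6142 and 3454. Its call was lost in 5 of the 6 leave-1-out fits (adjusted p up to 0.0962) and held without S80A replicate 1. Heme oxygenase HMOX1 (2.13 ± 0.40 SE, adjusted p = 0.00593) and the thioredoxin reductase TXNRD1 (1.19 ± 0.23 SE, adjusted p = 0.00681) were higher.

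Of 12 listed cell cycle genes 4 were lower (33.3%, against 17.7% of all listed genes) and 4 higher (33.3%, against 29.2%). The mitotic genes PLK1, at 990.2, 786 and 790.1 in wild type and 201, 71.3 and 89.9 in S80A (-2.95 ± 0.39 SE, adjusted p = 0.00200), AURKA (-2.48 ± 0.38 SE, adjusted p = 0.00277) and CDC20 (-3.20) and the replication licensing factor CDC6 (-2.44 ± 0.39 SE, adjusted p = 0.00327) were lower. CDKN1A, the inhibitor p21, was higher at 12681, 9322 and 10737 against 48741, 67672 and 54913 (2.39 ± 0.22 SE, adjusted p = 0.000909). The others higher were PLK3 (1.66), E2F7 (1.42) and CDK6. The call of CDK6 was lost in 4 of 6 leave-1-out fits (adjusted p up to 0.104). PLK1 and CDKN1A differed before LPS too, where PLK1 was at 1962, 1866 and 1625 in wild type and 374, 348 and 291 in S80A (-2.43 ± 0.15 SE, adjusted p = 0.00216) and CDKN1A at 3284, 3248 and 3049 and 12500.2, 14625 and 12287 (2.04 ± 0.12 SE, adjusted p = 0.00216). Of macrophage surface and scavenging genes, 3 of 8 were higher (37.5%) and 1 was lower (12.5%). MERTK, a receptor for apoptotic cells, was at 81.0, 65.4 and 84.6 and 423, 460.1 and 566 (2.63 ± 0.22 SE, adjusted p = 0.000785), and the endocytic adaptor DAB2 at 294, 544 and 496 and 1971, 3866 and 3689 (2.82 ± 0.36 SE, adjusted p = 0.00187). Of 8 listed signs of RNA quality or stress, the nuclear RNA MALAT1 was higher (1.19 ± 0.23 SE, adjusted p = 0.00628) and HSPA1B lower (-0.85 ± 0.24 SE, adjusted p = 0.0272), and 6 were not called. HSPA1B lost its call in 3 of 6 leave-1-out fits (adjusted p up to 0.104). Their part in the other differences was not tested.

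**Figure D4:**
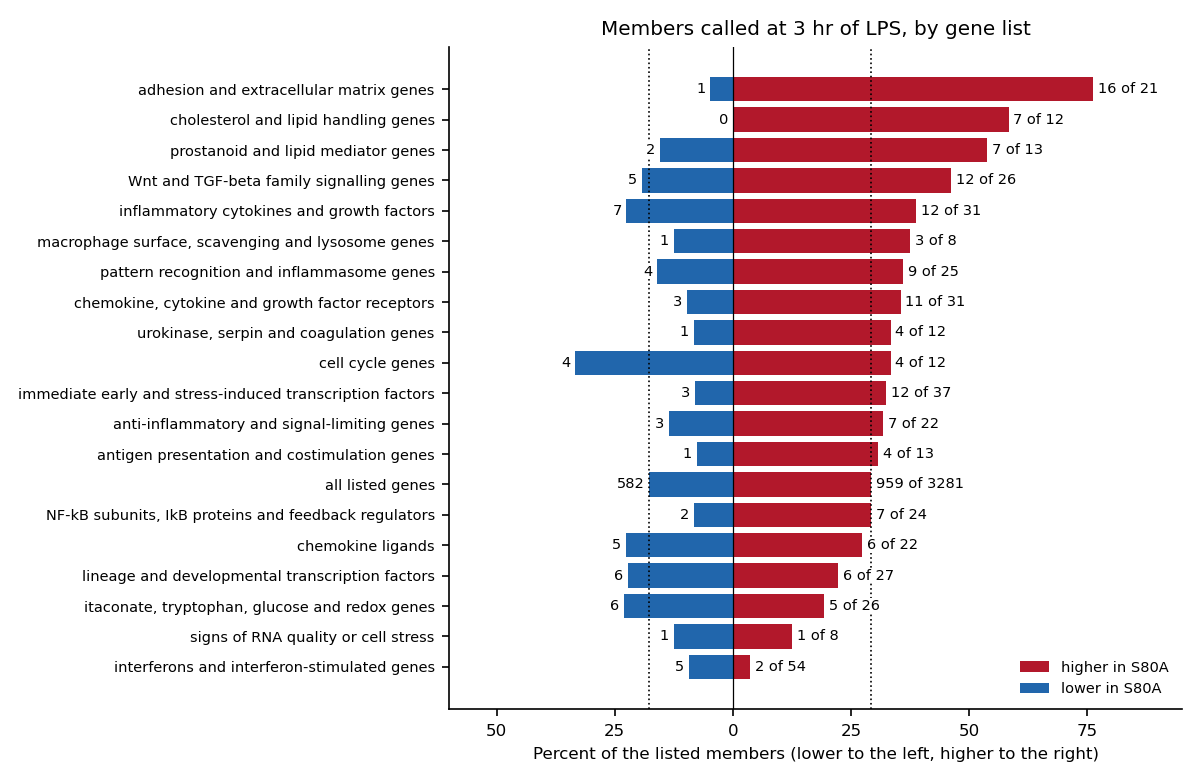
Percent of the listed members of each gene list that were called higher (right) or lower (left) in S80A cells at 3 hr of LPS, with counts beside the bars. Dotted lines mark the shares over all 3281 listed genes (29.2% and 17.7%). Adhesion and matrix genes reach 16 of 21 higher, and interferon genes have 2 of 54 higher.

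Part of the difference after LPS was already there before it. At 0 hr, 660 of the same genes were called higher in S80A cells (20.1%) and 347 lower (10.6%). These counts fell to 312 and 169 in the lowest of the fits that left out 1 library. That was without S80A replicate 2 for the higher and wild-type replicate 3 for the lower genes, and leaving out any wild-type library or S80A replicate 2 moved both counts by over 1.5 times. Of the 959 genes higher at 3 hr, 388 were also called higher at 0 hr (40.5% of the 3 hr list and 58.8% of the 0 hr list). Of the 582 lower at 3 hr, 201 were called lower at 0 hr (34.5% and 57.9%). A call in the opposite direction at 0 hr was made for 13 and 16 of them. The median size of the difference among genes higher at 3 hr was 1.51 then and 0.79 at 0 hr, and among genes lower at 3 hr it was 1.43 and 0.63. Across the 3281 genes the differences at the 2 times had a Pearson correlation of 0.572 and a Spearman correlation of 0.574, which is a description over genes of the same 2 lines, with no library in common.

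MMRN2 was among the genes with as large a difference before LPS, at 169, 139.9 and 136 scaled reads in wild type and 4599, 7664 and 6958 in S80A at 0 hr (5.40 ± 0.23 SE, adjusted p = 0.00181). HCP5 was at 126, 109 and 106 and 3.98, 2.33 and 0 before LPS (-5.49 ± 0.61 SE, adjusted p = 0.00463), with no overlap, so it was low in S80A cells at both times. MT1E was at 365, 305 and 345 and 45.8, 8.53 and 11.5 (-4.25 ± 0.62 SE, adjusted p = 0.00873), PDGFA at 612, 458 and 531 and 4804, 9991 and 10589.8 (3.91 ± 0.35 SE, adjusted p = 0.00346) and SERPINE2 at 48.5, 50.7 and 48.4 and 328, 1419 and 1366 (4.10 ± 0.61 SE, adjusted p = 0.00891). For these 5 genes the change of the difference with LPS was not called.

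For other genes the difference between the genotypes changed with LPS. The difference at 3 hr minus that at 0 hr, tested as an interaction over all 12 libraries, was called positive for 236 genes (7.19%) and negative for 228 (6.95%), together 464 (14.1%). Of the listed genes, 773 were listed for the LPS response of wild-type cells alone and 946 for that of S80A cells alone. That selection, made in the same libraries, favours genes whose difference changes with LPS, so these shares describe the listed genes alone. Among genes higher at 3 hr, 186 had a positive call, 9 a negative one and 764 none, and among genes lower at 3 hr, 143 had a negative call, 3 a positive one and 436 none. The counts of 236 and 228 ranged from 136 to 342 and from 122 to 321 as 1 library was left out. The lowest were without wild-type replicate 2 at 3 hr and S80A replicate 2 at 0 hr. Without S80A replicate 1 at both times, an alternative chosen after seeing the data, they were 378 and 427.

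SELE had 0 reads in all 6 libraries at 0 hr, and so did CSF2 (interaction 5.46 ± 0.47 SE, adjusted p = 0.000172 for SELE and 4.76 ± 0.97 SE, adjusted p = 0.0106 for CSF2). CCR7 had at most 2.42 scaled reads at 0 hr in any library (-3.87 ± 0.68 SE, adjusted p = 0.00530), and IL6 at most 0.804 (-2.24 ± 0.38 SE, adjusted p = 0.00481). For these 4 genes edgeR, which compares ratios of reads, did not call the interaction (adjusted p = 1, 1, 0.0889 and 0.742), and 0 or few reads at 0 hr give no firm ratio there. FGF18 (5.36 ± 0.84 SE, adjusted p = 0.00357) and the phosphoinositide kinase PIK3C2B (3.81 ± 0.47 SE, adjusted p = 0.00128) were not called at 0 hr and were higher in S80A cells at 3 hr. PIK3C2B was at 288, 224 and 198 and 298, 222 and 134 before and at 95.1, 61.2 and 46.0 and 667, 811 and 998 after LPS. LGR4 went from 438, 512 and 537 and 452, 465 and 659 to 1654, 1738 and 1759 and 415, 158 and 193, so every wild-type library was higher and every S80A library lower after LPS than any of its genotype before (-2.94 ± 0.45 SE, adjusted p = 0.00308). KCNA3, a voltage-gated potassium channel, turned over. Before LPS it was at 78.8, 92.5 and 85.5 in wild type and 4.98, 3.88 and 3.15 in S80A (-4.13 ± 0.17 SE, adjusted p = 0.00181), and after LPS at 509, 387 and 424 and 1237, 1399 and 829.7 (1.37 ± 0.26 SE, adjusted p = 0.00608). The change between the times was 5.49 ± 0.33 SE, adjusted p = 0.0000105. CXCL2 differed by -1.26 at 0 hr, from at most 16.1 scaled reads, and by 1.39 at 3 hr (2.65 ± 0.55 SE, adjusted p = 0.0115), and IL10 by -1.08 and 1.90 (2.97 ± 0.52 SE, adjusted p = 0.00530). For IL1B the change was not called (-3.60 ± 1.47 SE, adjusted p = 0.120). Its level at 0 hr varied from 152 to 4669 among S80A libraries against 12.1 to 90.9 in wild type.

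**Figure D5:**
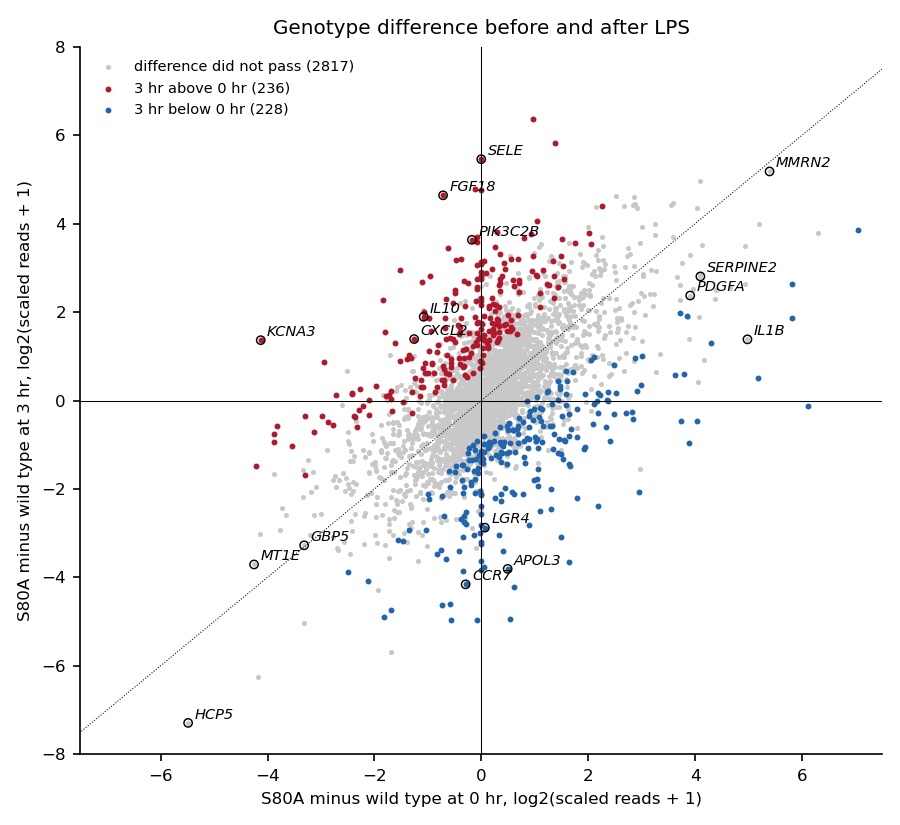
Difference between S80A and wild-type cells at 3 hr of LPS (vertical axis) against that at 0 hr (horizontal axis), both in log2(scaled reads + 1), for 3281 listed genes. Coloured points are the 236 and 228 genes whose difference changed between the times, and the dotted line marks equal differences. MMRN2 lies near that line, HCP5 lies far below 0 at both times, SELE and CCR7 lie near 0 on the horizontal axis, and KCNA3 lies on opposite sides of 0 at the 2 times.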

How the data were processed

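RNA-seq was made from 12 libraries in 4 groups of 3, poly(A) selected, stranded TruSeq, single-end reads of 75 bases on a NextSeq 500 to a target of 20 M reads, per the labels' protocols. The submitters' processing notes name the build GRCh38 and, without versions, DESeq2, HTSeq, Cuffdiff, StringTie, HISAT and FastQC. For the annotation and for strand handling in counting, nothing is given in the sources used here, so antisense partners and near-identical genes are uncertain. The signal values deposited by the authors are whole reads per gene scaled by library size factors of 0.834 to 1.29, since 100% of values came out as whole reads to within 0.01. The authors' deposited p-values (adjusted, under 0.01) and log2 fold changes (over 1 in size) for LPS decided which genes are listed, and other genes were not analysed here.

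Groups were compared with limma on log2(scaled reads + 1), with no filter, over 3281 genes and the 6 libraries of each time, and over 12 libraries for the change between times. Benjamini-Hochberg adjusted p under 0.05 was the threshold. On simulated counts for the 3 hr comparison of 3281 genes, 11% of differences of 1 log2 and 89% of those of 2 log2 were recovered, with 1 false call of 101. Of the simulated differences of 1 log2, edgeR recovered 53%. Far fewer genes were changed in the simulation than were called in the data, and its spread was set by a formula. These rates therefore need not hold for the real comparison. Alternatives were pseudocounts of 0.5 and 5, a minimum mean of 10 scaled reads, an intensity trend, edgeR and DESeq2 on the recovered whole reads, a replicate block, all 12 libraries in 1 fit, median centring and leaving out each library. On the recovered reads with the deposited size factors, edgeR called 1013 genes higher and 568 lower at 3 hr. Same-numbered libraries of the genotypes deviated together at 0 hr (correlations 0.188, 0.245 and 0.259 across genes), and within genotypes between times (0.153 to 0.343), but at 3 hr they gave 0.153, 0.196 and 0.064. The numbers thus met the criterion for pairs (every correlation over 0.1) at 0 hr and between times, and not at 3 hr. All values in the report are from fits without a replicate term, and the blocked counts are given with the alternatives.

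The genes and gene lists were chosen with earlier results of these data known. Named genes were NFKB1, 20 known LPS targets, the 12 largest called differences per direction without overlap and with a mean of at least 100 scaled reads in the higher genotype, up to 3 such genes per list and direction by smallest p, and up to 5 per direction with the interaction called. Other genes named beside list counts were chosen as members of those lists. The values of 1 gene are not reported here. Positions of genes are from GENCODE release 29 and promoters and present symbols from RefSeq. R 4.3.3, limma 3.58.1, edgeR 4.0.16, DESeq2 1.42.0, Python 3.11.15, pandas 2.3.3 and matplotlib 3.10.9 were used.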

Additional observations from a re-analysis of the deposited data

Results flagged for a closer look

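The difference between the genotypes changed between 0 hr and 3 hr of LPS, by the interaction term of limma, for 236 genes upward and 228 downward. The listing of genes for an LPS response in either genotype favours such changes. Of the genes named in the text, 45 were among these 236 and 228. The values here are the difference at 3 hr minus that at 0 hr in log2. Adhesion, cytokine and growth factor genes whose difference went up were SELE (5.46), CSF2 (4.76), FGF18 (5.36), EFNA1 (4.90), PDGFB (3.50), IL10 (2.97), CXCL2 (2.65) and IL18 (1.67). Receptors, sensors and proteases that did so were ACKR3 (3.02), ADORA3 (2.61), MERTK (1.41), NLRP3 (1.72), TLR1 (1.19), TLR2 (1.44) and PLAU (1.96). The remaining ones were C2CD4A (5.41), C2CD4B (4.46), KCNA3 (5.49), PIK3C2B (3.81), CCRN4L (3.35), ABTB2 (2.52), WT1 (2.35), E2F7 (2.00) and PPARD (1.29), where CCRN4L is the older symbol of NOCT, a deadenylase-related circadian gene, and ABTB2 encodes a BTB domain protein.

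Differences that went down were in cytokines and the NF-κB pathway for IL12B (-3.24), IL27 (-3.51), IL6 (-2.24), LTA (-2.69), NFKB2 (-1.30) and MAP3K8 (-1.48). Receptor and Wnt or TGF-β pathway genes among them were CCR7 (-3.87), LGR4 (-2.94), TGFBR3 (-2.41), WNT3 (-1.66), FZD7 (-1.73) and NRROS (-1.93). FZD7 was higher in S80A cells at both times, at 103, 157 and 99.2 in wild type and 1058, 1871 and 1867 in S80A before LPS, and the gap was smaller after LPS. The others were FAM65B (-4.88), APOL3 (-4.30), CCM2L (-4.01), OLIG1 (-3.07), LINC01137 (-2.32), PLEKHH3 (-2.28), BMP2K (-2.09), LINC00926 (-1.96) and LOC145783 (-1.83). Differences of opposite sign at the 2 times were seen among others for LTA, NFKB2, MAP3K8, LINC01137, LOC145783 and BMP2K, with BMP2K at 1251, 1065 and 1172 in wild type and 2285, 2452 and 3012 in S80A before LPS and at 2064, 2389 and 2122 and 1414, 1052 and 990.3 after it. Of the 45 genes, 27 kept the call under all alternatives run and 18 lost it under 1 or more, with 0 reversed. By edgeR with the deposited size factors 10 were not called (C2CD4A, C2CD4B, CCM2L, CCR7, CSF2, EFNA1, FAM65B, IL12B, IL6 and SELE).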

How the results depend on the processing

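At 3 hr the counts of 959 higher and 582 lower genes stayed within 1.5 times in all alternatives run except 2 of the leave-1-out fits, and the leave-1-out fits gave 692 to 1090 higher and 363 to 698 lower. The split moved with the scaling, to 842 and 768 with edgeR and TMM factors, 875 and 788 with DESeq2 and 794 and 727 with the median difference subtracted, from shares higher of 62.2% to 52.3%, 52.6% and 52.2%. The fit of all 12 libraries gave 1006 and 647, and the limit of 1 log2 gave 760 and 439. At 0 hr, TMM factors gave 528 and DESeq2 562 lower genes where 347 were called, and leave-1-out fits gave 312 to 786 higher and 169 to 414 lower. For the change between times, leave-1-out fits gave 136 to 342 up and 122 to 321 down, and leaving out S80A replicate 1 at both times, chosen after seeing the data, gave 378 and 427. The causes were not tested.

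The replicate block gave 940 higher and 553 lower genes at 3 hr, where the libraries share only a number and 1 wild-type library correlated best with another number (0.147 against 0.064). With the pairing block there were 669 and 340 calls at 0 hr, and 315 and 305 for the change between times, within 1.5 times of the unblocked counts. For the 135 named genes at 3 hr, 2160 values under alternatives kept 2078 calls, lost 78 and gained 4, with 0 reversed, and 109 genes had no change. In the fit of all 12 libraries 8 named genes were not called (CD70, CXCL3, CXCL8, ICOSLG, IL1B, LTA, SOCS1 and TNFAIP3), and with the block ICOSLG, NFKB2 and SOCS1 were not. Counts of list members also moved. Without wild-type replicate 2, called cytokines went from 12 higher and 7 lower to 7 and 4, and immediate early genes from 12 and 3 to 7 and 0. All listed genes went from 959 and 582 to 712 and 383 in that fit. Chemokines went from 6 to 3 higher in the fit of all 12 libraries and from 5 to 1 lower without wild-type replicate 1 or 3. Antigen presentation genes went from 4 to 1 higher with the median subtracted.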

Other observations

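Some of the largest differences at 3 hr were in genes of no list, and the ones given here were chosen after their values were seen. Receptors higher in S80A cells were P2RY12, the ADP receptor of platelets and microglia, by 4.97, the complement receptor C5AR2 by 4.41, the succinate receptor SUCNR1 by 3.56 and the serotonin receptor HTR2B by 3.55. P2RY12 was at 3.52, 0 and 3.21 scaled reads in wild type and 46.0, 113 and 109 in S80A, and C5AR2 at 121, 90.3 and 115 and 1266, 2916 and 3314. The cytokine TSLP was higher by 3.76, the transcription factors IRF4, FOXO1 and ETS1 by 3.59, 3.47 and 3.28, and the T cell receptor partner CD28 by 3.69. Leukocyte signalling genes were among those lower. The phosphoinositide kinase PIK3CD was at 4630.2, 5362 and 4867 in wild type and 648, 572 and 468 in S80A (-3.15 ± 0.21 SE, adjusted p = 0.000649) and the phosphatase PTPN6 (SHP-1) at 1516, 1580.0 and 1577 and 439.5, 332 and 329 (-2.10 ± 0.20 SE, adjusted p = 0.000950). The inhibitory receptor PDCD1 was lower by -3.64 and the IgA receptor FCAR by -2.50 on the signed log2 scale.

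Called genes that lie side by side often differed in the same direction. This was looked at after the values were seen. Among 3042 listed genes with a single place in GENCODE, 834 pairs of neighbours lay within 100 kb of each other without overlapping. Both members were called at 3 hr in 181 pairs (21.7%, against 22.1% of all pairs of such genes). Of these, 83 were both higher, 59 both lower and 39 opposite, so 78.5% were in the same direction, against 52.9% over all pairs of called genes. No test was made. Such pairs were ICAM1 with ICAM4 and ICAM4 with ICAM5 on chromosome 19, MMP10 with MMP1 and SAA2 with SAA1 on chromosome 11, C2CD4A with C2CD4B on chromosome 15, APOL3 with APOL4 (-2.09) on chromosome 22 and OLIG2 (-3.05) with OLIG1 on chromosome 21. A pair without evident kinship was KLF3 (2.83) with TLR1 on chromosome 4. Near-identical neighbours such as SAA1 and SAA2 can share reads in counting, and a transcript that runs on can add reads to the next gene. Their part in this share was not tested.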
